A study of Arabidopsis thaliana with 12 samples.

Results

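In rosette leaves of the thale cress Arabidopsis thaliana, the measured set held 69 probe sets whose signal was lower in each of 3 altered lines than in the wild type, out of 22810 probe sets on the array. A probe set is a group of short probes for one transcript, and its deposited value is a log2 signal, so that a difference of 1 is a doubling. The members were chosen by these values themselves: a mean of at least 7 in the wild type, a mean at least 0.6 lower in each line, and all 9 arrays of the lines below the lowest wild-type array. QQS, ORA47 and WRKY53 met the same conditions and were set aside, as the rule asks, and STZ, the remaining gene the rule names, did not meet them. With these 3 included, 72 of the 11861 probe sets that are neither controls nor plastid-encoded and reach the wild-type level met the rule, which is 0.607%. The rule turned round, for probe sets higher in all 3 lines, was met by 39. It kept the wild-type mean of at least 7, so probe sets that are dim in the wild type could not enter.

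Samples were leaves of soil-grown plants at an age of 6 weeks, kept at 22 °C and 60% humidity with 16 h of light a day, with 3 arrays per group, called biological replicates in the labels. OE1 and OE2 were lines 1 and 2 that overexpress TaFLS, a transgene named for flavonol synthase, for which the sources used here give no promoter. The third line, fls1-3, was a mutant named for FLS1, and Col-0 was the wild-type accession. The labels describe leaf and guard-cell flavonols as decreased for OE1 and increased for OE2 and for fls1-3, which does not sort the lines by genotype. Each line therefore stands below for the arrays that carry its label, and FLS1 itself has no named probe set here that could check the mutant.

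Flavonol synthase turns dihydroflavonols into flavonols, the pigments that absorb ultraviolet light, act as antioxidants and temper auxin transport in plants. In leaves they collect mainly in the epidermis and in guard cells. Leaf transcripts also follow light, sugar, touch and time of day, and many genes of cell wall growth, protein turnover and redox metabolism are among those that do.

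Of the 69 members, 33 have a probe set that names 1 gene, 0 name several and 36 are unnamed in the annotation table used here. The named members include enzymes of polyamine and methyl-group metabolism, a pair of glutaredoxin-like proteins, and proteins of folding and breakdown. Also among them are the wall-loosening protein EXPA8, the sugar transporter SWEET2 and the light-signalling protein AFR. The mean of the 3 lines lay between 0.70 and 6.30 log2 units below Col-0, with a median difference of -1.13. For 45 members it lay at least 1 unit below, and for 7 at least 2 units. The median member differed from Col-0 by -1.01 in OE1, -1.297 in OE2 and -1.14 in fls1-3, against medians over all 22746 probe sets tested of 0.11, 0.083 and -0.0039 in the same lines. These differences from Col-0 chose the members and share the same 3 Col-0 arrays, so they are given as a description, without a test. In whole leaves, fewer cells of a type and less RNA per cell cannot be told apart.

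**Figure D1:**
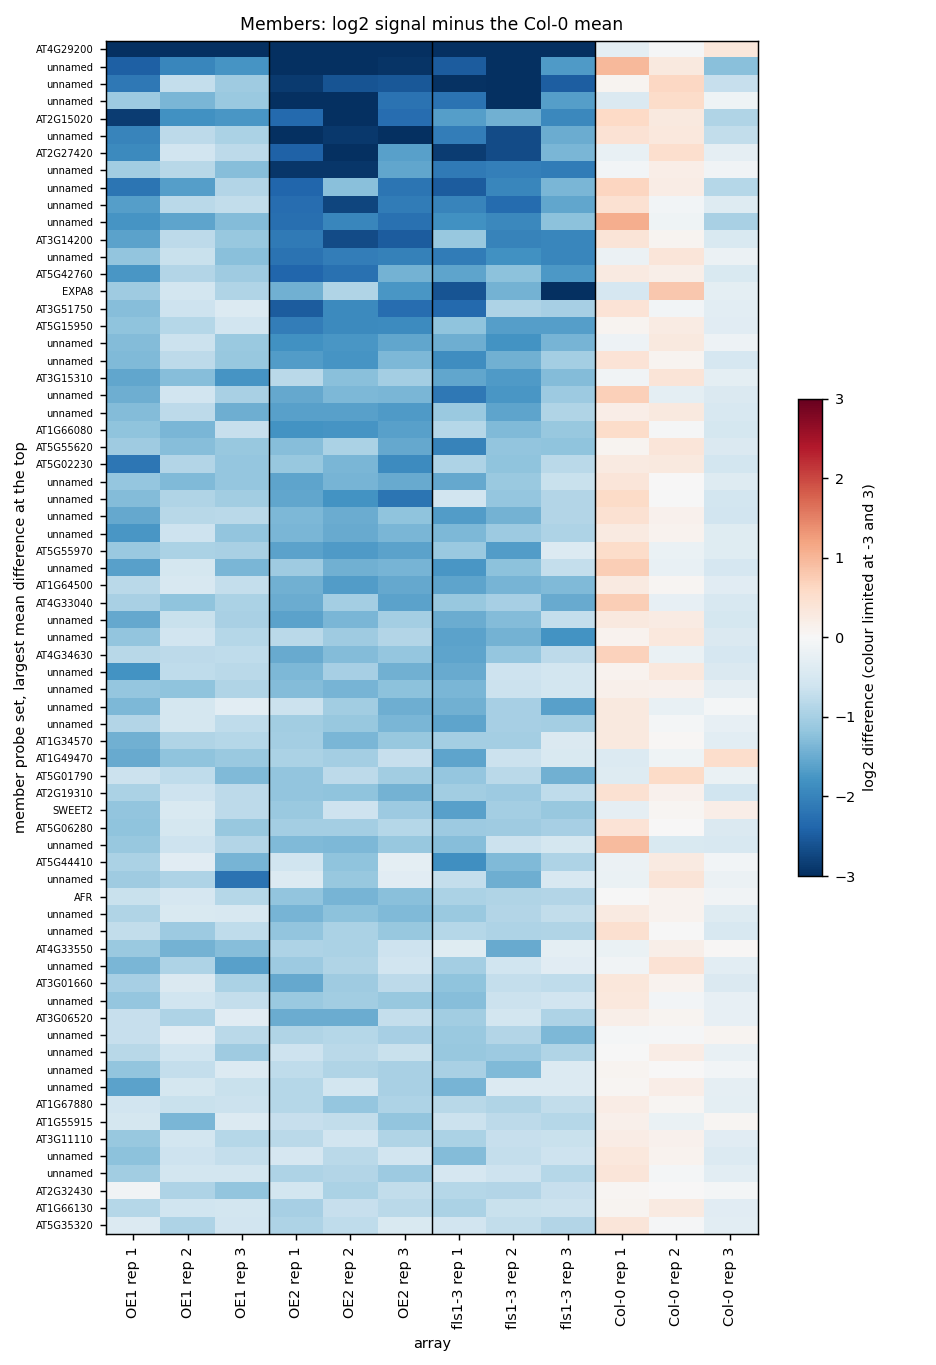
Each row is 1 of the 69 members and each column 1 array, grouped as OE1, OE2, fls1-3 and Col-0; colour gives the log2 signal minus that member's Col-0 mean, limited at -3 and 3. All 9 line arrays are below every Col-0 array by the rule, OE2 has the lowest group mean for 44 members, and Col-0 replicate 3 is the lowest Col-0 array for 57.

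Of the 3 members that encode proteins of folding and breakdown, AT2G27420, for a protease of the papain type, had signals of 5.55, 6.89 and 6.67 in OE1, 5.02, 2.65 and 5.83 in OE2 and 4.62, 4.78 and 6.08 in fls1-3, against 7.23, 7.97 and 7.18 in Col-0. OE2 and fls1-3 were lowest and the OE2 arrays scattered widely, with the group means -1.09 for OE1, -2.96 for OE2 and -2.30 for fls1-3 relative to Col-0. AT3G14200, for a chaperone of the DnaJ type, had 8.29, 9.11 and 8.76 in OE1, 7.76, 7.22 and 7.38 in OE2 and 8.75, 7.89 and 7.93 in fls1-3, against 10.27, 9.97 and 9.43 in Col-0. Here the OE2 arrays lay below all OE1 and all fls1-3 arrays, with differences from Col-0 of -1.17 for OE1, -2.44 for OE2 and -1.70 for fls1-3. AT2G19310, for a small heat shock protein of the HSP20 type, averaged 9.76 ± 0.17 for OE1, 9.29 ± 0.13 for OE2 and 9.59 ± 0.18 for fls1-3, against 10.56 ± 0.54 for Col-0 (SD, n = 3 each). Over these 3 genes the median difference from Col-0 was -1.09 in OE1, -2.44 in OE2 and -1.70 in fls1-3.

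Among the 6 metabolic enzymes, AT5G15950, for an S-adenosylmethionine decarboxylase of polyamine synthesis, had 8.63, 8.96 and 9.25 in OE1, 7.74, 7.91 and 7.93 in OE2 and 8.61, 8.17 and 8.17 in fls1-3, against 9.91, 10.07 and 9.48 in Col-0. OE1 was highest, fls1-3 next and OE2 lowest, and no array of one line overlapped with those of another. The step between OE1 and fls1-3 was narrow, with OE1 replicate 1 at 8.627 and fls1-3 replicate 1 at 8.612. Its differences from Col-0 were -0.88 for OE1, -1.96 for OE2 and -1.51 for fls1-3. AT5G42760, for a methyltransferase of the leucine carboxyl type, had 6.66, 7.54 and 7.35 in OE1, 6.03, 6.18 and 7.01 in OE2 and 6.84, 7.18 and 6.69 in fls1-3, against 8.69, 8.59 and 7.97 in Col-0. The arrays of the lines overlapped with each other, and all stayed below the lowest Col-0 array by at least 0.425.

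AT5G02230, for a hydrolase of the haloacid dehalogenase type, had 7.78, 9.05 and 8.78 in OE1, 8.80, 8.57 and 8.05 in OE2 and 9.01, 8.74 and 9.14 in fls1-3, against 10.22, 10.23 and 9.38 in Col-0. OE1 replicate 1 was the lowest of these, and the line means were within 0.49 of each other. AT3G01660, for another methyltransferase, averaged 8.25 ± 0.32 for OE1, 7.92 ± 0.38 for OE2 and 8.15 ± 0.27 for fls1-3, against 9.05 ± 0.39 for Col-0, and its highest line array lay 0.00064 below its lowest Col-0 array, the narrowest gap of all members. AT5G44410, for an oxidase of the berberine bridge enzyme type, averaged 6.51 ± 0.53 for OE1, 6.71 ± 0.46 for OE2 and 6.05 ± 0.45 for fls1-3, against 7.41 ± 0.25 for Col-0. AT1G66130, for an oxidoreductase that binds NAD(P), averaged 9.39 ± 0.17 for OE1, 9.22 ± 0.16 for OE2 and 9.31 ± 0.18 for fls1-3, against 10.06 ± 0.31 for Col-0, with nearly the same level in all 3 lines. The median of the 6 enzymes was -0.89 in OE1, -1.296 in OE2 and -1.17 in fls1-3 relative to Col-0.

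The members grouped as redox proteins were AT1G64500 and AT4G33040, both of the glutaredoxin-like type. Typical glutaredoxins reduce disulfide bonds with glutathione, but whether these 2 proteins do so was not tested. AT1G64500 had 9.65, 9.98 and 9.74 in OE1, 9.01, 8.76 and 8.91 in OE2 and 8.86, 9.05 and 9.13 in fls1-3, against 10.72, 10.52 and 10.11 in Col-0. Its replicates were tight, and every OE1 array lay above every OE2 and fls1-3 array, so the difference from Col-0 was smallest in OE1, at -0.66 for OE1, -1.55 for OE2 and -1.44 for fls1-3. AT4G33040 had 6.82, 6.59 and 6.85 in OE1, 6.32, 6.79 and 6.21 in OE2 and 6.68, 6.81 and 6.30 in fls1-3, against 8.54, 7.56 and 7.31 in Col-0. For this gene the lines overlapped with each other, and Col-0 replicate 1 stood well above the other two Col-0 arrays.

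In the wall and sugar group, EXPA8, an alpha-expansin that loosens the cell wall during growth, had 9.35, 9.88 and 9.52 in OE1, 8.99, 9.53 and 8.67 in OE2 and 7.84, 9.01 and 7.42 in fls1-3, against 9.91, 11.23 and 10.14 in Col-0. The order differed from that of most members, with fls1-3 lowest, and all OE1 arrays lay above all fls1-3 arrays. The highest line array, OE1 replicate 2, came within 0.035 of the lowest Col-0 array. SWEET2, a sugar transporter of the vacuole membrane, averaged 8.57 ± 0.37 for OE1, 8.43 ± 0.27 for OE2 and 8.12 ± 0.33 for fls1-3, against 9.38 ± 0.24 for Col-0 (SD, n = 3 each). AT2G32430, of a galactosyltransferase family, averaged 6.44 ± 0.56 for OE1, 6.43 ± 0.20 for OE2 and 6.37 ± 0.10 for fls1-3, against 7.17 ± 0.07 for Col-0, and AT1G67880, of an N-acetylglucosaminyltransferase family, 8.49 ± 0.04 for OE1, 8.14 ± 0.16 for OE2 and 8.29 ± 0.08 for fls1-3, against 9.12 ± 0.26 for Col-0. EXPA8, SWEET2 and, by a small margin, AT2G32430 were lowest in fls1-3, and AT1G67880 was lowest in OE2. The median of the 4 was -0.77 for OE1, -0.96 for OE2 and -1.04 for fls1-3 relative to Col-0.

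AFR, an F-box protein that promotes far-red light signalling through phytochrome A, averaged 9.49 ± 0.18 for OE1, 8.88 ± 0.11 for OE2 and 9.25 ± 0.04 for fls1-3, against 10.16 ± 0.11 for Col-0. The replicates were tight, and the line arrays did not overlap, OE1 above fls1-3 and fls1-3 above OE2. The step between OE1 and fls1-3 was narrow, with OE1 replicate 3 at 9.311 and fls1-3 replicate 3 at 9.294. AT5G55970, a RING-type protein of the kind that attaches ubiquitin, had 8.07, 8.24 and 8.22 in OE1, 7.58, 7.48 and 7.58 in OE2 and 8.08, 7.52 and 8.77 in fls1-3, against 9.74, 8.99 and 8.82 in Col-0. The OE2 arrays lay together below all OE1 arrays, while fls1-3 replicate 3 stood close to Col-0. AT3G11110, another RING-type protein, averaged 7.33 ± 0.30 for OE1, 7.41 ± 0.17 for OE2 and 7.41 ± 0.16 for fls1-3, against 8.18 ± 0.30 for Col-0 and differed little between lines.

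**Figure D2:**
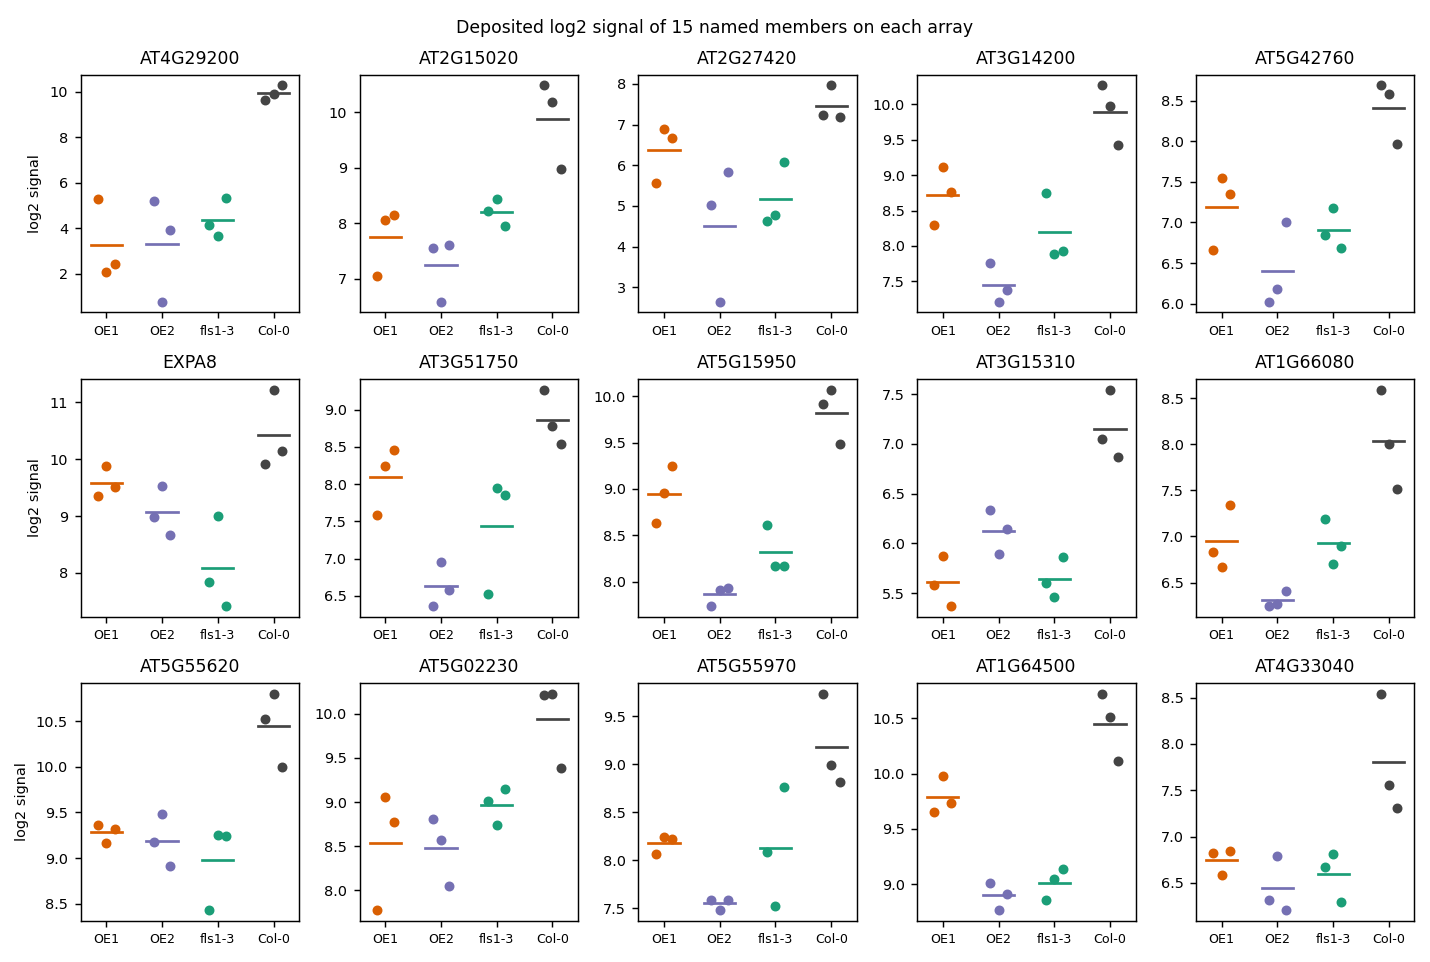
Deposited log2 signal (vertical axis, scaled to each panel) of the 15 named members with the largest mean difference, on the 3 arrays of OE1, OE2, fls1-3 and Col-0; points are arrays in order of replicate number and bars are group means. The gap between the lowest Col-0 array and the highest line array is 4.32 log2 units for AT4G29200, whose line arrays scatter widely, and at most 0.55 in the other panels.

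The remaining 15 named members fall in none of these groups, and most carry no role that could be stated here with certainty. AT4G29200 had 5.29, 2.07 and 2.43 in OE1, 5.22, 0.79 and 3.93 in OE2 and 4.16, 3.66 and 5.35 in fls1-3, against 9.66, 9.91 and 10.29 in Col-0. The lines were dim and scattered, with an SD of 1.76 for OE1, 2.28 for OE2 and 0.86 for fls1-3, so the size of the difference, -6.69 for OE1, -6.64 for OE2 and -5.56 for fls1-3, is uncertain, although the gap from its highest line array to its lowest Col-0 array was 4.32. With 64 added to the linear signal before taking logs, which damps dim values, its mean difference was -3.69 in place of -6.30.

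AT2G15020 had 7.05, 8.07 and 8.15 in OE1, 7.56, 6.59 and 7.61 in OE2 and 8.23, 8.44 and 7.96 in fls1-3, against 10.49, 10.19 and 8.99 in Col-0. OE2 was lowest and fls1-3 highest among the lines, and Col-0 replicate 3 lay well below the other two Col-0 arrays. AT3G51750 had 7.59, 8.25 and 8.46 in OE1, 6.37, 6.95 and 6.58 in OE2 and 6.53, 7.95 and 7.86 in fls1-3, against 9.27, 8.78 and 8.54 in Col-0. Its OE2 arrays lay below all OE1 arrays, and OE1 replicate 3 came within 0.086 of Col-0. AT3G15310, annotated as a pseudogene, had 5.59, 5.87 and 5.37 in OE1, 6.33, 5.89 and 6.14 in OE2 and 5.60, 5.46 and 5.86 in fls1-3, against 7.04, 7.55 and 6.87 in Col-0. It was the only named member with OE2 above both other lines without overlap.

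AT1G66080 had 6.84, 6.67 and 7.34 in OE1, 6.25, 6.27 and 6.41 in OE2 and 7.19, 6.70 and 6.90 in fls1-3, against 8.59, 8.004 and 7.51 in Col-0, with OE2 below both other lines. AT5G55620 had 9.37, 9.17 and 9.32 in OE1, 9.17, 9.49 and 8.91 in OE2 and 8.43, 9.25 and 9.24 in fls1-3, against 10.52, 10.80 and 10.003 in Col-0, with line means within 0.31 of each other. The other 9 of these genes, AT4G34630, AT1G34570, AT1G49470, AT5G01790, AT5G06280, AT4G33550, AT3G06520, AT1G55915 and AT5G35320, had mean differences between -1.097 for AT4G34630 and -0.70 for AT5G35320. Of these, AT4G33550 and AT1G49470 were lowest in OE1, with every OE1 array below every OE2 array. AT5G06280 had line means within 0.09 of each other, at -0.96 for OE1, -0.96 for OE2 and -1.05 for fls1-3 relative to Col-0. The probe set of AT1G34570 (suffix _s_at) is of a type that can also detect related transcripts, so its gene is uncertain.

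Among the same genes AT4G34630 differed from Col-0 by -0.79 for OE1, -1.32 for OE2 and -1.18 for fls1-3, with all OE1 arrays above all OE2 arrays. AT1G34570 differed by -1.07 for OE1, -1.18 for OE2 and -0.82 for fls1-3, with all fls1-3 arrays above all OE2 arrays. AT1G49470 differed by -1.28 for OE1, -0.89 for OE2 and -0.90 for fls1-3 and AT4G33550, of the lipid transfer protein type, by -1.26 for OE1, -0.84 for OE2 and -0.72 for fls1-3. These 2 run against the common order of the lines. AT5G01790 differed by -0.91 for OE1, -1.004 for OE2 and -1.14 for fls1-3 and AT3G06520, a protein with an agenet domain, by -0.66 for OE1, -1.23 for OE2 and -0.84 for fls1-3. AT1G55915 differed by -0.77 for OE1, -0.88 for OE2 and -0.76 for fls1-3 and AT5G35320 by -0.63 for OE1, -0.72 for OE2 and -0.74 for fls1-3, with little between the lines. On the linear scale, the mean of the lines was between 2.31-fold and 4.44-fold lower than Col-0 for the 14 genes that follow AT4G29200 in size, and 1.62-fold lower for AT5G35320, the smallest.

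**Figure D3:**
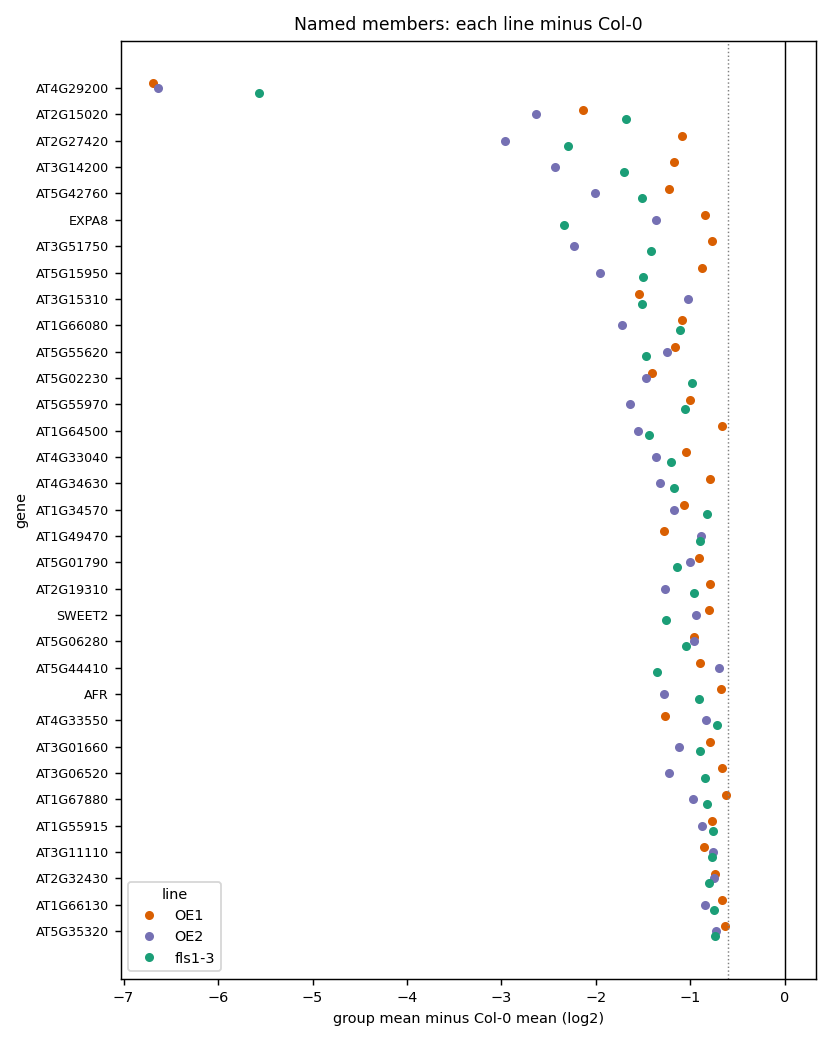
Group mean minus Col-0 mean on the log2 scale (horizontal axis) for the 33 named members, with 1 point per line; the dotted line marks -0.6, the limit of the rule. OE2 lies furthest left for AT2G15020, AT2G27420 and AT3G14200, fls1-3 for EXPA8 at -2.34, and AT5G06280 has nearly equal values in all 3 lines.

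The 36 unnamed members spanned mean differences of -2.702 to -0.78, with a median of -1.205, against a median of -1.02 for the named members. The largest was that of probe set 266841_at, with 7.27, 7.75 and 7.94 in OE1, 6.12, 6.07 and 6.77 in OE2 and 7.22, 5.98 and 8.02 in fls1-3, against 10.69, 10.01 and 8.46 in Col-0. Probe set 247543_at followed, with 7.99, 9.42 and 9.07 in OE1, 7.28, 7.56 and 7.60 in OE2 and 7.18, 7.08 and 7.66 in fls1-3, against 10.23, 10.76 and 9.45 in Col-0. In both, Col-0 replicate 3 was the lowest Col-0 array and OE1 was the highest line.

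At the limit of the rule, the 3 members nearest to it had smallest differences of 0.614, 0.618 and 0.624 log2 units, all from unnamed probe sets, with OE1 the nearest line for the first 2 of them and OE2 for the other. The 3 probe sets just outside had 0.593, 0.591 and 0.581, among them AT4G32440 at 0.593 in fls1-3. The gap between the lowest Col-0 array and the highest line array had a median of 0.20 over the members and was under 0.1 for 19 of them. Only 6 members had a gap of at least 0.5, namely AT4G29200, AT2G15020, AT3G15310, AT5G55620 and 2 unnamed probe sets, all of which were picked out after their values were seen.

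The size of the difference varied with the individual array. The median member differed from its Col-0 mean by -1.18, -0.78 and -0.94 log2 units in OE1 replicates 1, 2 and 3, by -1.34, -1.295 and -1.35 in OE2, and by -1.36, -1.17 and -0.92 in fls1-3. In Col-0 the same medians were 0.27, 0.099 and -0.34 in replicates 1, 2 and 3. OE2 was the most even line and Col-0 replicate 3 the Col-0 array nearest to the lines. The medians over all probe sets stayed between -0.073 and 0.19 on the same scale.

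Col-0 replicate 3 was the lowest Col-0 array for 57 members, or 82.6%, against 29.9% of the 11861 probe sets that reach the wild-type level. The rule asks all line arrays to lie below the lowest Col-0 array, so for those members this array sets the limit. Without it, 304 probe sets met the rule, 68 of the 69 members among them. Without OE1 replicate 2, which was the highest line array for 27 members, 120 met it, 66 of the members among them. Leaving out fls1-3 replicate 3, the highest line array for 14 members, gave 103 probe sets, with 68 of the members among them. Without Col-0 replicate 1 or 2 the rule was met by 82 and 85 probe sets, which kept 55 and 58 of the members. Measured from each Col-0 array singly, the median member's mean over the 9 line arrays differed by -1.401 from replicate 1, -1.26 from replicate 2 and -0.83 from replicate 3. What sets Col-0 replicate 3 apart was not tested.

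**Figure D4:**
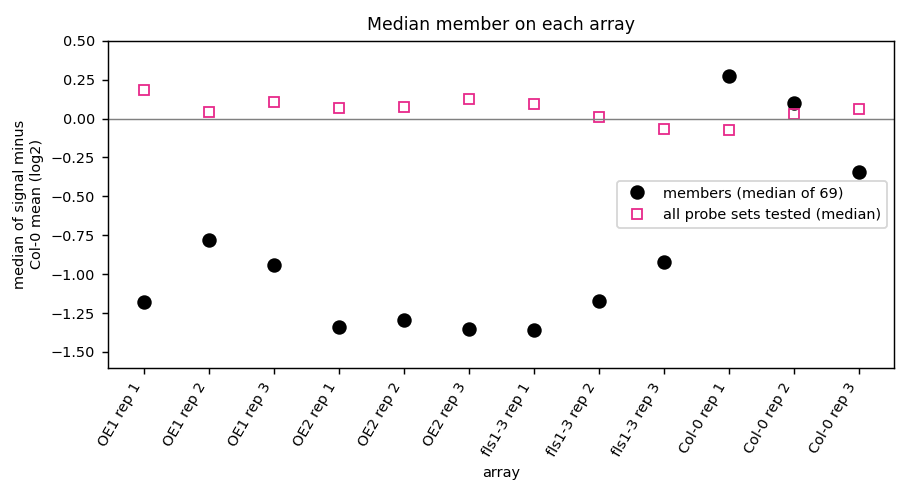
Median over the 69 members (black circles) and over all 22746 probe sets tested (open pink squares) of the log2 signal minus the Col-0 mean, for each of the 12 arrays. The line arrays lie between -1.36 and -0.78 for the members, Col-0 replicate 3 lies at -0.34, and all probe sets stay near 0.

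The lines were then compared with each other, a contrast that the rule did not use except that it held every line below Col-0. By group mean, OE2 was the lowest line for 44 members, fls1-3 for 17 and OE1 for 8. These are 63.8%, 24.6% and 11.6% of the members, against 19.3%, 48.1% and 32.7% of all probe sets that reach the wild-type level. OE1 was the highest line for 47 members, or 68.1%, against 44.9%. The line means of a member spanned a median of 0.504 log2 units. For 54 of the 69 this span was smaller than the smallest difference of any line from Col-0. The rule set a lower limit on that smallest difference. The count of 54 was therefore partly fixed by how members were chosen, and it does not test how alike the lines are. The 13 members with a span over 1 included AT4G29200, AT2G27420, AT3G14200, EXPA8, AT3G51750 and AT5G15950.

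A limma fit over all 22746 probe sets, with Benjamini-Hochberg adjustment, called 0 of the 69 members at an adjusted p under 0.05 in any of the 3 comparisons between lines. Calls were also few in the background, with 0.0264% of all probe sets called for OE1 minus OE2, 0.554% for fls1-3 minus OE1 and 0.0220% for fls1-3 minus OE2. At an unadjusted p under 0.05, OE1 minus OE2 gave 18 members, all with the higher level in OE1, which is 26.1% of the members against 8.43% of all probe sets. For fls1-3 minus OE1 the count was 14, of which 13 were lower in fls1-3, or 20.3% against 15.7%. For fls1-3 minus OE2 it was 8, of which 5 were higher in fls1-3, or 11.6% against 5.44%. With array quality weights limma called 11 members in OE1 minus OE2, which is 15.9% of them against 2.34% of all probe sets. In fls1-3 minus OE1 it then called 12, or 17.39% against 16.6%, a share near the background, and in fls1-3 minus OE2 it called 0 against 0.514%. Fitted with only the 2 groups compared, it called 3, 0 and 0 members in the same order, against 0.391%, 0.127% and 0.0044% of all probe sets. Every member has a Col-0 mean of at least 7, whereas the background shares of these fits also count dimmer probe sets.

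In OE1 minus OE2 the median member differed by 0.31, against 0.031 over all probe sets, and without OE1 replicate 1 it differed by 0.51. Of the 69 members 58 were higher in OE1, where 52.8% of all probe sets were. All 3 OE1 arrays lay above all 3 OE2 arrays for 27 of the 69 members. Of the 11861 probe sets that reach the wild-type level this held for 1516, or 12.8%. AT1G64500 had a difference of 0.89 ± 0.17 (SE, n = 3 against 3; limma adjusted p = 0.133), AT5G15950 one of 1.08 ± 0.21 (limma adjusted p = 0.135) and AFR one of 0.61 ± 0.13 (limma adjusted p = 0.195), each higher in 3 of 3 OE1 arrays than in any OE2 array. The lowest limma adjusted p of a member, 0.107, belonged to the unnamed probe set 263739_at at 1.08 ± 0.19, singled out for that p. None of these passed the threshold in the fit over all 12 arrays. With only the 2 groups, AT1G64500 (limma adjusted p = 0.0439) and 263739_at (limma adjusted p = 0.0496) passed, and with array weights all 4 did, at limma adjusted p from 0.00724 for AT5G15950 to 0.0353 for AFR.

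In fls1-3 minus OE1 the median member differed by -0.16, against -0.12 over all probe sets, and by -0.032 with centred arrays. All 3 OE1 arrays lay above all 3 fls1-3 arrays for 13 of the 69 members. Of the 11861 probe sets that reach the wild-type level this held for 1868, or 15.7%. AT1G64500 had a difference of -0.78 ± 0.17 (limma adjusted p = 0.0668) and EXPA8 one of -1.49 ± 0.41 (limma adjusted p = 0.116). Neither passed here, but AT1G64500 did with array weights (limma adjusted p = 0.00343) and with the filter on dim probe sets (limma adjusted p = 0.0492). The unnamed probe set 263739_at again had the lowest limma adjusted p of the members, 0.0581. In fls1-3 minus OE2 the median member differed by 0.165, against -0.080, and 48 of 69 members were higher in fls1-3, where 40.95% of all probe sets were. Without fls1-3 replicate 1 that median was 0.33, and with the arrays centred on their medians it was 0.28. All 3 fls1-3 arrays lay above all 3 OE2 arrays for 15 of the 69 members, beside 857 of the same 11861 probe sets, or 7.23%. The lowest limma adjusted p of a member in fls1-3 minus OE2 was 0.501. These 3 comparisons share line arrays with each other, so their counts are not independent.

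**Figure D5:**
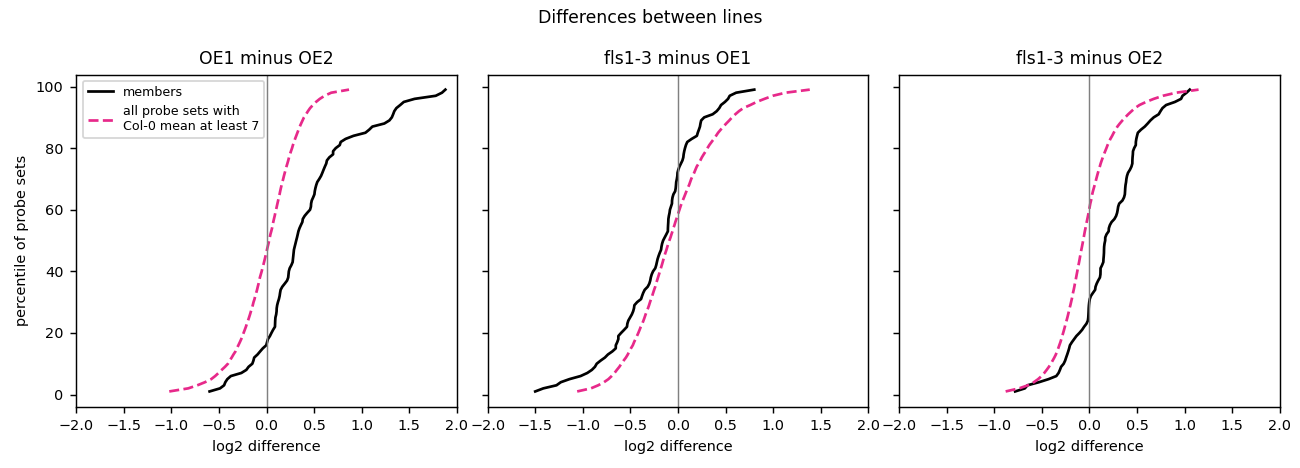
Percentiles (vertical axis) of the log2 difference between lines (horizontal axis) for the 69 members (solid) and for all 11861 probe sets with a Col-0 mean of at least 7 (dashed). The solid curve lies to the right of 0 for OE1 minus OE2 at its median of 0.31, to the left for fls1-3 minus OE1 at -0.16, and to the right for fls1-3 minus OE2 at 0.165.

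The control transcripts moved with OE1. The 3' minus 5' difference in log2 signal, which grows when RNA is shortened or copied incompletely, was 0.74 ± 0.12 for GAPDH in OE1, 0.45 ± 0.081 in OE2 and 0.32 ± 0.11 in fls1-3, against 0.45 ± 0.098 in Col-0 (SD, n = 3 each). For actin it was 3.24 ± 0.38, 2.45 ± 0.12 and 2.31 ± 0.29 in the same lines, against 2.598 ± 0.18 in Col-0. For ubiquitin it was 1.25 ± 0.17, 0.66 ± 0.11 and 0.25 ± 0.045, against 0.59 ± 0.14 in Col-0. On all 3 controls every OE1 array lay above every other array, and its part in the smaller differences of OE1 was not tested.

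What the members share apart from their levels was limited by the annotation. The 33 named members lie on all 5 nuclear chromosomes, 7 on chromosome 1, 6 on 2, 7 on 3, 4 on 4 and 9 on 5, and 32 are protein-coding. Only AT1G66080 and AT1G66130 are close neighbours, with 5 annotated genes between them, and the next closest pair, AT5G55620 and AT5G55970, has 44. No other probe set on the array names a member's gene, so no second measurement of these transcripts could be set beside the first. The array files name no genome build, and positions are therefore not given.

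Lists of genes for pathways of leaves were read beside the members. Of 179 list genes, 25 have a named probe set, and among these EXPA8 of the wall loosening list was the 1 member. The other list genes could not be looked up, and some may be among the 36 unnamed members. The other 4 named expansins, EXPA4, EXPA9, EXPA15 and EXPA16, did not meet the rule, and the medians of the 5 were -0.36, 0.35 and -0.042 for OE1, OE2 and fls1-3 minus Col-0. The list of rapid stress responders, genes induced within minutes of touch or wounding, has 61 genes, of which 7 have a named probe set. These 7 held 0 members, with medians of -0.55, -0.85 and -0.039 in the same lines. Whether the unnamed members include others of the 61 could not be checked. The list does not hold ORA47, WRKY53 or STZ, which the rule names, and of which ORA47 and WRKY53 met its conditions. Of the 7, IDL7, for a peptide of the IDA-like family, had differences of -1.27, -3.21 and -2.20 and missed the rule because OE1 replicate 2, at 8.02, lay above Col-0 replicate 3, at 7.82. By limma 0 of the 25 were called between lines, and 4, 7 and 6 had an unadjusted p under 0.05 in OE1 minus OE2, fls1-3 minus OE1 and fls1-3 minus OE2. These are 16%, 28% and 24% of the 25, against 8.43%, 15.7% and 5.44% of all probe sets.

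Other lists with few named genes also held near neighbours of the rule. SDI2, of the sulfur deficiency response, had differences of -0.595, -2.18 and -1.88, so its OE1 mean missed the limit of 0.6. Its OE1 replicates 2 and 3, at 11.04 and 10.67, also lay above Col-0 replicate 3, at 10.65. IAGLU, an auxin glucosyltransferase, had differences of -0.78, -1.52 and -1.83. Its OE1 replicate 2, at 8.88, lay above Col-0 replicate 3, at 8.69. For the 2 named sulfur genes the medians were 0.52, -1.53 and -0.875, and for the 4 of the auxin response 0.29, 1.18 and 0.36. The clock gene GI, the 1 named gene of its list, averaged 8.502 ± 0.13 for OE1, 8.49 ± 0.033 for OE2 and 8.297 ± 0.14 for fls1-3, against 8.28 ± 0.17 for Col-0 (SD, n = 3 each). For the flavonol pathway the medians of UGT78D1 and UGT78D2 were 0.24, 0.043 and -0.25. Heat shock, phosphate, nitrate and salicylic acid lists have 0 named genes, so whether they hold members could not be checked.

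The leaf label was checked on RCA, the activase of the carbon-fixing enzyme Rubisco and the 1 named mesophyll marker, which lay between 14.36 and 15.18 on all 12 arrays. FAMA and STOMAGEN, of stomatal development, had median differences of 0.58, 0.42 and -0.043 in OE1, OE2 and fls1-3. Singly, FAMA differed by -0.040, 0.39 and 0.21 and STOMAGEN by 1.20, 0.45 and -0.30 in the same lines. STOMAGEN scattered widely in Col-0, at 7.73, 10.001 and 10.21. CLV3, of the shoot meristem, was dim on every array, between 0 and 4.88, with means of 3.81, 2.21 and 2.54 for the same lines, against 1.19 for Col-0. Root, seed, trichome and phloem markers have 0 named probe sets, so their part was not tested.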

How the data were processed

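RNA of rosette leaves from 12 samples was hybridised to Affymetrix arrays, 3 per group, from 6 µg of total RNA per the labels' protocols. The authors deposited log2 signals, 1 per probe set and array; MAS5 is named in the submitters' processing notes, and the sources used here give neither its version nor a genome build. The values themselves show a floor at 0 and a 2% trimmed mean of 500.05 on every array after conversion to the linear scale. Whether replicates came from separate plants is not given, so p-values reflect only how far these arrays scatter, which may be technical, and their number limits the precision.

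Groups were taken from the titles. Members and gene lists were chosen with earlier results of these data known. Gene names come from a platform annotation of 2016, in which 13513 probe sets name 1 gene, 503 several and 8730 none here. Loci and neighbours come from RefSeq's gene table (assembly TAIR10.1), read for naming and gene order alone. The 77 probe sets with a plastid gene stayed out of the rule. The rule for named genes took all named members, with array values for the 15 of largest mean difference. Role groups were formed after the values were seen.

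Lines were compared with limma 3.58.1 in R 4.3.3 on all 12 arrays, with 1 coefficient per group, an intensity trend, 8 residual degrees of freedom and Benjamini-Hochberg adjustment over 22746 probe sets without 64 controls. The method was tested on simulated data. Alternatives were other scalings, adding 1, 16 or 64 to the linear signal, dropping probe sets below the 40th percentile of mean signal, no _s_at or _x_at probe sets, a replicate block, no trend, only 2 groups, array weights and leaving out each array.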

Additional observations from a re-analysis of the deposited data

How the results depend on the processing

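The number of probe sets that met the rule lay between 56 and 75 under the scalings and pseudocounts tried and the removal of cross-hybridising probe sets, and between 65 and 304 when each array was left out in turn. Centring the arrays on their medians kept 45 of the members, the fewest of all settings. The median difference of the members ranged over 0.27 to 0.51 in OE1 minus OE2, -0.26 to -0.093 in fls1-3 minus OE1 and 0.11 to 0.33 in fls1-3 minus OE2 when single arrays were left out, and the last was 0.28 with centred arrays. Calls over all probe sets ranged over 4 to 19, 17 to 578 and 3 to 11 in these comparisons without single arrays, and member calls over 0 to 0, 0 to 2 and 0 to 0. Without Col-0 replicate 1 they were 19 and 578 in the first pair of comparisons, without Col-0 replicate 3 they were 11 and 199, and fls1-3 minus OE1 had 17 to 76 without any 1 line array. In fls1-3 minus OE2 the 11 came without OE2 replicate 1, and 3 without Col-0 replicate 2, OE1 replicate 1 or 3, OE2 replicate 2 or 3, or fls1-3 replicate 1. For OE1 minus OE2, against 6 calls, quantile normalization gave 10, array weights 532 and only the compared groups 89, with 11 members under array weights and 3 under the last. For fls1-3 minus OE1, against 126, the calls were 48 with centred arrays, 245 with the filter, 20 without the trend, 3783 with array weights and 29 with only the compared groups, and members called were 2 with the filter and 12 with array weights. For fls1-3 minus OE2, against 5, they were 3 without the trend, 117 with array weights and 1 with only the compared groups. Promoter motifs, also planned, were not run. The cause of these shifts was not tested.

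Of 18 pairs of same-numbered arrays, 5 correlated above 0.1, and the direction was not common to all pairs. The values ranged from -0.72 for replicate 3 of fls1-3 and Col-0 to 0.75 for replicate 1 of OE1 and fls1-3. With the replicate block the calls were 13, 105 and 3 in the same order, and 2 members were called in fls1-3 minus OE1, EXPA8 (limma adjusted p = 0.0278) and probe set 263739_at. AT1G64500 passed in fls1-3 minus OE1, from an adjusted p of 0.0668, with the filter and without Col-0 replicate 1 or 3. For the 33 named members, 593 mean differences were taken under the scalings, pseudocounts and left-out arrays. Of these, 588 moved by less than the spread between replicates, 5 moved further, all with a pseudocount of 64, and 0 changed sign. With a pseudocount or a left-out array the sign was fixed in advance, as the rule holds every line array below every Col-0 array.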
